A study of Rattus norvegicus with 158 samples.

Results

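Gabapentin, a structural analogue of the neurotransmitter GABA that is used against seizures and neuropathic pain, was given to male Sprague-Dawley rats, purchased at 6 to 8 weeks of age, and the transcripts of their thigh muscle were measured on Affymetrix RG230_2.0 arrays. The arrays described here were the 6 labelled Gabapentin, 3.80% of all arrays in the series and 2 of its 47 groups, 3 from rats dosed for 3 d and 3 from rats dosed for 5 d. All had received 2500 mg/kg daily by oral gavage, with water as the vehicle. They were compared with the 18 arrays labelled Water, 9 at 3 d and 9 at 5 d, from rats of the same strain, sex and age at purchase that had been given water by gavage and no compound. The series surveys the early response of rat tissues to drugs and toxicants, and the question of this comparison was which muscle transcripts differed after Gabapentin. Arrays of 8 other compounds given in water, at the doses stated with them, are set beside these further on.

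Gabapentin binds the alpha2delta subunits of voltage-gated calcium channels, and it enters cells through the L-type amino acid transporters that also carry leucine. Skeletal muscle expresses an alpha2delta subunit as part of the calcium channel of its transverse tubules. Muscle also answers to hormones and to the supply of fuel. Glucocorticoids and fasting raise genes that spare glucose and break down protein, among them kinases that shut glucose carbon out of the mitochondria and the FoxO transcription factors. Feeding, contraction and the daily clock set the level of many of the same genes.

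The values are log2 levels from robust multiarray averaging (RMA), and differences are Gabapentin minus Water on that scale. The 24 arrays had medians from 5.71 to 5.78 and no identical pair. The library labelled Water at 5 d, replicate 4, stood apart, with a median correlation to the other arrays of 0.920. Its summed level of Schwann cell markers was 14.39 against a Water median of 10.44. Its Klf15 level of 8.19 was the lowest of the Water arrays at 5 d, while the lowest at 3 d was 8.07. Leaving this library out raised the count of called genes given below from 61 to 83. The muscle label was borne out by the 19 fibre markers, whose summed level was 17.73 to 17.87 on Gabapentin arrays and 17.66 to 18.08 on Water arrays. RNA had been extracted on several dates, named A to G here, with 4 Gabapentin arrays on date C and 2 on date E, and Water arrays 7 on A, 5 on B, 5 on C and 1 on E. The later hybridization period held 2 Gabapentin arrays and 2 Water arrays. The Water arrays came from 8 studies, by the codes in their titles. The study code in the titles of the Gabapentin arrays was shared by 0 Water arrays, so the compound and its study cannot be told apart. The fits below took arrays as independent and did not include the study, so their SE and p-values do not carry the spread between studies.

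A gene was called where its difference was at least 1.5-fold with an adjusted p no higher than 0.01. Over both times, 61 of 14217 genes were called, 0.429% of those tested, with 36 higher (0.253%) and 25 lower (0.176%) after Gabapentin. An unadjusted p under 0.05 was reached by 1877 genes, or 13.2%, with 5.18% higher and 8.03% lower. The rises were led by the alpha-arrestin Arrdc2, the glutathione-degrading enzyme Chac1, the membrane protein Tmem252 and the pyruvate dehydrogenase kinase Pdk4. The falls were led by the small GTPase Rrad, the lipase inhibitor G0s2, the MAP kinase phosphatase Dusp10 and the proteoglycan Esm1. For 7 genes all 6 Gabapentin arrays lay above all 18 Water arrays (0.0492% of genes), and for 10 genes they lay below (0.0703%). With the extraction date as a block, 32 genes were called, 28 of them among the 61. All 61 kept their sign in that fit, each with an unadjusted p under 0.05. Without Gabapentin at 3 d replicate 1 the count was 31, and without replicate 2 it was 29.

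Arrdc2 had the largest change of all called genes. It encodes an alpha-arrestin, an adaptor that brings ubiquitin ligases to membrane proteins. Its level on the Gabapentin arrays was 10.41, 10.99 and 9.42 at 3 d and 9.68, 10.84 and 10.25 at 5 d, while the lowest, median and highest Water arrays were 6.38, 7.07 and 8.66. The groups did not overlap, and the times were alike in size. The difference was 2.98 ± 0.32 (log2 ± SE, adjusted p = 1.46e-05), a 7.87-fold rise, and Arrdc2 passed in all 37 alternative fits that gave it a value. Its relative Arrdc3 rose by 0.91 ± 0.15 (log2 ± SE, adjusted p = 0.00123), with Gabapentin arrays from 9.25 to 10.42 and Water arrays from 8.32 to 9.62. Arrdc3 was not called in the fit blocked by date, at 0.90 (adjusted p = 0.0174). Of the 18 measured alpha-arrestins and brakes on the growth kinase mTOR, these 2 were called higher and 0 lower. Ddit4, an inhibitor of mTOR that stress hormones raise, differed by 2.10 (adjusted p = 0.0223), and the leucine sensor Sesn1 by 0.55 (adjusted p = 0.036). Castor1, the arginine sensor upstream of mTOR, reached an adjusted p of 0.00532 with a difference of 0.46, below the fold limit. The list median was 0.07, against -0.01 over all genes. The other alpha-arrestins differed by 0.01 (Arrdc1), -0.34 (Arrdc4) and 0.09 (Txnip), all with adjusted p above 0.2.

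**Figure D1:**
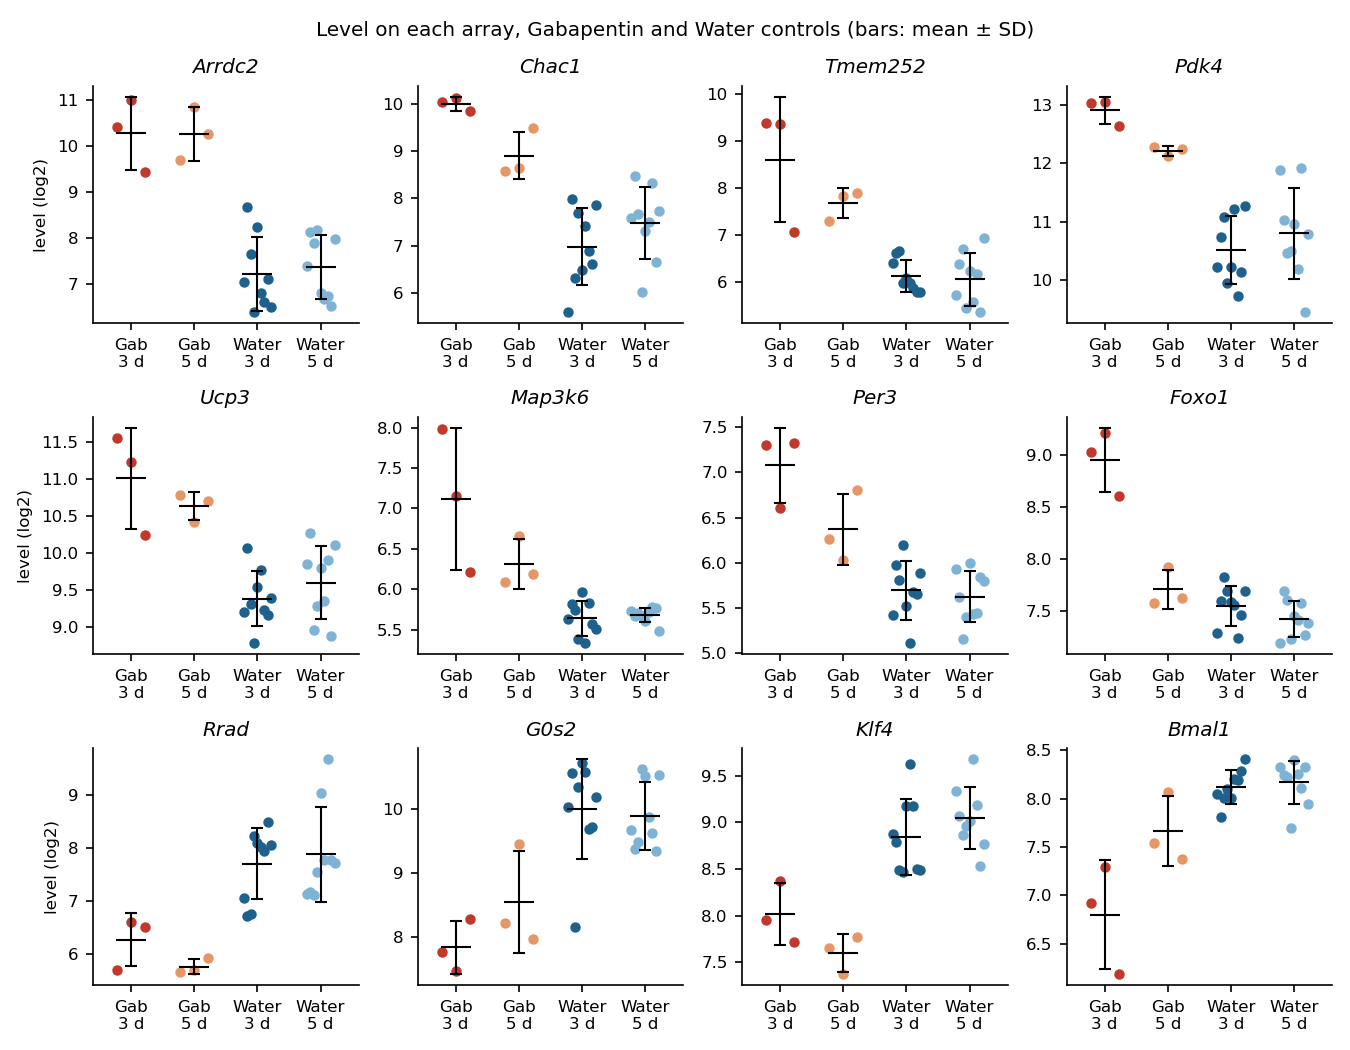
Level of 12 genes on each array (log2, vertical axis) in the groups Gabapentin 3 d (n = 3), Gabapentin 5 d (n = 3), Water 3 d (n = 9) and Water 5 d (n = 9), with a point per array and bars for the mean ± SD. Arrdc2, Chac1, Tmem252, Pdk4 and Map3k6 have all 6 Gabapentin points above all 18 Water points, Rrad and Klf4 have them all below, and Foxo1 stands apart at 3 d only.

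Chac1 encodes a cyclotransferase that breaks down glutathione and is a known target of the stress factor ATF4. Its 3 d arrays read 10.03, 10.12 and 9.84 and its 5 d arrays 8.58, 8.65 and 9.48, against Water levels of 5.59, 7.46 and 8.48 (lowest, median, highest). All 6 lay above every Water array, and those at 5 d lay closer to them. Chac1 rose by 2.22 ± 0.35 (log2 ± SE, adjusted p = 0.00103). Of the 28 measured genes of the ATF4 pathway, 1 was called higher, Chac1, and 1 lower, and the median was -0.02. An unadjusted p under 0.05 was reached by 5 upward and 6 downward, where 5.18% of all genes were higher and 8.03% lower at that p. The gene called lower was Aldh18a1, which makes the precursor of proline, at -0.66 ± 0.13 (log2 ± SE, adjusted p = 0.00663). Atf4 itself differed by -0.23 (adjusted p = 0.0301), the asparagine synthetase Asns by -0.22 (adjusted p = 0.855) and Trib3, a sensitive ATF4 target, by -0.03 (adjusted p = 0.932). Neither call held with the date as a block, Chac1 being 2.21 (adjusted p = 0.0249) and Aldh18a1 -0.69 (adjusted p = 0.0576), and Aldh18a1 was also not called without any one of the 6 Gabapentin arrays.

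The glucocorticoid-responsive genes had the highest median of the lists examined. Of 29 measured, 5 were called higher and 0 lower, where 0.253% of all genes were called higher and 0.176% lower. An unadjusted p under 0.05 in the upward direction was reached by 20, where 5.18% of all genes were higher at that p. The median difference was 0.59 against -0.01 for all genes. The 5 called genes were Tmem252, Map3k6, Tiparp, Klf9 and Klf15. Tmem252, Slc25a25 and Pfkfb3 had been put on this list after earlier results of these arrays were known, so their values do not bear on the list. Without them 26 genes were measured, of which 4 were called higher and 0 lower, and 18 had an unadjusted p under 0.05 upward. The median was then 0.54, still the highest. The other members and the other lists were also chosen with earlier results of these data known. The ranking is thus a description and not a test. Tmem252 read 9.39, 9.37 and 7.07 at 3 d and 7.31, 7.83 and 7.90 at 5 d, above the Water levels of 5.36, 6.04 and 6.94, and rose by 2.05 ± 0.28 (log2 ± SE, adjusted p = 2.41e-04). Map3k6, a stress-activated kinase, read 7.98, 7.15 and 6.21 and 6.08, 6.66 and 6.19, with Water arrays at 5.33, 5.69 and 5.96. Its lowest Gabapentin array lay just above the highest Water array, and the rise was 1.05 ± 0.17 (log2 ± SE, adjusted p = 0.00111). Tiparp, a mono-ADP-ribosyltransferase, read 9.70, 9.97 and 9.29 and 8.86, 9.38 and 9.30 against 8.10, 8.49 and 8.78 in Water, again without overlap, with a rise of 0.94 ± 0.12 (log2 ± SE, adjusted p = 8.09e-05).

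Klf9 and Klf15 are Kruppel-like transcription factors that the glucocorticoid receptor induces, and Klf15 in muscle raises the enzymes of branched-chain amino acid breakdown. Klf9 read 11.73, 11.67 and 11.52 at 3 d and 10.84, 11.01 and 11.52 at 5 d, against 10.09, 10.57 and 11.11 in Water, and rose by 0.78 ± 0.12 (log2 ± SE, adjusted p = 0.00108). Other probe sets of Klf9 did not show this size, 1 with a mean level of 8.13 at 0.31 and 1 with a mean level of 4.29 at -0.05, neither with an unadjusted p under 0.05. Klf15 read 9.14, 9.54 and 9.43 and 9.45, 9.29 and 9.33, with Water at 8.07, 8.75 and 9.18, and rose by 0.68 ± 0.12 (log2 ± SE, adjusted p = 0.00379). A second Klf15 probe set of mean level 8.05 differed by 0.28 (unadjusted p = 0.0748), and a dim one by 0.17. Klf15 was called neither with that second set nor with the extraction date as a block, at 0.73 (adjusted p = 0.0191), nor without any one of the 3 d Gabapentin arrays. In both genes, on the probe sets used, most Gabapentin arrays, 4 of 6 for Klf9 and 5 of 6 for Klf15, lay above all Water arrays. Classical receptor targets outside these 5 had these differences, none of them called. The immunophilin Fkbp5 differed by 1.37 (adjusted p = 0.05), the period gene Per1 by 0.99 (adjusted p = 0.0114), the kinase inhibitor Errfi1 by 1.22 (adjusted p = 0.0824), the transcription factor Cebpb by 0.97 (adjusted p = 0.0412), and Tsc22d3, also called Gilz, by 0.31 (adjusted p = 0.245). The receptor gene Nr3c1 differed by 0.05 (adjusted p = 0.882). With the extraction date as a block, Map3k6 was no longer called, at 1.07 (adjusted p = 0.0239), nor was Klf15, as given above. Tmem252, Tiparp and Klf9 stayed called. The blocked fit called 4 members, so it included a member not called in the main fit, and the median was 0.73.

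The RefSeq promoter windows of Klf9 and Klf15, 250 bases before to 50 after the annotated start, are shown because these transcription factors were both called and each window held 2 of the 4 words searched on both strands. The words were CACGTG (the E-box word of clock factors), GTAAACA (bound by FoxO factors), AGAACA (a glucocorticoid receptor word) and TGACGT (the CRE word of cAMP-responsive factors), and capitals mark the matches.
Klf9, GRCr8 chr1:230126396-230126695, plus strand: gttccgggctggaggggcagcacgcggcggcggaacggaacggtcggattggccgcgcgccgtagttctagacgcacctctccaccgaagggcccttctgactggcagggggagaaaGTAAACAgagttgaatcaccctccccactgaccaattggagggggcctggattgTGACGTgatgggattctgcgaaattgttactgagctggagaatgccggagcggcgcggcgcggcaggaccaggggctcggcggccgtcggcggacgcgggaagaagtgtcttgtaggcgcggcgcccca
Klf15, GRCr8 chr4:124522765-124523064, plus strand: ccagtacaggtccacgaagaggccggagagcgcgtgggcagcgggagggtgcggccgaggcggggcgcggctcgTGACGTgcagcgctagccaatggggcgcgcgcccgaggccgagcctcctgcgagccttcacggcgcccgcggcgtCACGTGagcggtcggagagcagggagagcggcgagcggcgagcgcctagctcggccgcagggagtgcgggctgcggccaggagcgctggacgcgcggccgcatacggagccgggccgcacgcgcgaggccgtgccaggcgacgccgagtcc
In Klf9 the capitals are the FoxO word, starting 133 bases before the start, and the CRE word, 79 before it. In Klf15 they are the CRE word, 176 before, and the E-box word, 101 before. Over all 33469 promoters of the same length the E-box word was in 6.42%, the FoxO word in 3.78%, the receptor word in 20.7% and the CRE word in 7.94%. Among the 34 called-higher genes with a window the words were in 3, 2, 5 and 3, and among the 18 called-lower genes in 0, 3, 0 and 1. These are matches of letters and not measured binding.

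Of the genes that switch muscle from glucose to fat, Pdk4 and Ucp3 were called, and none of the enzymes that burn fat was. Pdk4 phosphorylates and shuts pyruvate dehydrogenase, the entry of glucose carbon into the mitochondrion. It read 13.03, 13.05 and 12.64 at 3 d and 12.27, 12.12 and 12.24 at 5 d, against Water at 9.45, 10.62 and 11.91. The groups did not overlap, and Pdk4 rose by 1.91 ± 0.29 (log2 ± SE, adjusted p = 6.64e-04), or 3.75-fold, with a second probe set at 1.80. Ucp3, a mitochondrial carrier of muscle that rises in fasting, read 11.56, 11.24 and 10.25 and 10.79, 10.42 and 10.71 against 8.78, 9.38 and 10.27 and rose by 1.33 ± 0.21 (log2 ± SE, adjusted p = 8.50e-04). Of 24 genes of fuel choice and PPAR targets, these 2 were called higher and 0 lower. Ucp3 was not called in the fit blocked by date, at 1.43 (adjusted p = 0.0123). Angptl4, the secreted inhibitor of lipoprotein lipase, differed by 1.19 (adjusted p = 0.0412), the lipid droplet protein Plin5 by 0.83 (adjusted p = 0.0712) and the carnitine transferase Cpt1a by 0.66 (adjusted p = 0.0582). The list median was 0.13. Of the 17 enzymes of mitochondrial fatty acid oxidation 0 were called, 0 had an unadjusted p under 0.05, and the median was 0.06, with members from -0.12 to 0.19.

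G0s2 binds and inhibits the triglyceride lipase ATGL. Its level was 7.76, 7.46 and 8.29 at 3 d and 8.22, 9.45 and 7.97 at 5 d, against 8.16, 9.96 and 10.73 in Water. Of the 6 arrays 3 lay below every control and 3 within the Water range, whose lowest array was replicate 3 at 3 d. G0s2 fell by 1.76 ± 0.30 (log2 ± SE, adjusted p = 0.00196), the only call among 20 lipases and their regulators. That call was lost with the extraction date as a block, at -1.54 (adjusted p = 0.0276), and without Gabapentin 3 d replicate 1 or replicate 2. The lipase gene Pnpla2 differed by 0.41 (adjusted p = 0.273) and Pnpla7, a lysophospholipase, by 0.53 (adjusted p = 0.021). Fat cell markers were not called in either direction. The summed level of the 11 markers ran from 12.39 to 14.11 on Gabapentin arrays and from 13.28 to 14.83 on Water arrays, and its part in the G0s2 difference was not tested.

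FoxO factors turn on ubiquitin ligases and autophagy genes when insulin is low. Foxo1 read 9.04, 9.22 and 8.61 at 3 d and 7.58, 7.92 and 7.62 at 5 d, against 7.19, 7.51 and 7.83 in Water. The 3 d arrays stood above every control, while of the 5 d arrays only replicate 2 did. Over both times Foxo1 rose by 0.85 ± 0.15 (log2 ± SE, adjusted p = 0.00225). Foxo3 read 9.17, 9.65 and 9.28 and 8.70, 8.94 and 8.95 against 8.16, 8.51 and 8.74 and rose by 0.65 ± 0.10 (log2 ± SE, adjusted p = 0.00108). Dimmer Foxo3 probe sets, with mean levels of 4.71 and 4.13, differed by 0.11 and -0.10, and those of Foxo1, with mean levels of 5.81 and 4.64, by 0.21 and 0.07. Of 25 FoxO, atrophy and autophagy genes these 2 were called, and the median was 0.06. Blocking by date left 0 called, Foxo1 being 0.91 (adjusted p = 0.0261) and Foxo3 0.60 (adjusted p = 0.0272). Without Gabapentin 3 d replicate 2, 0 were called too, and without replicate 1 only Foxo3. The muscle ligases did not pass. Fbxo32 (atrogin-1) differed by 0.07 (adjusted p = 0.927) and Trim63 (MuRF1) by 0.23 (adjusted p = 0.31). Of the 30 proteasome genes 0 were called and 0 had an unadjusted p under 0.05, with a median of -0.03. Of 31 genes of insulin signalling and glucose use 0 were called, and the adaptor Irs1 differed by -0.89 (adjusted p = 0.0221).

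Called clock genes lay in both directions. The clock runs on Bmal1 and its partners, which drive the Per and Nr1d genes, whose products in turn hold Bmal1 down. Of 20 measured, Per3 and Nr1d2 were called higher and Bmal1 and Nfil3 lower. Per3 read 7.31, 6.60 and 7.33 at 3 d and 6.27, 6.03 and 6.81 at 5 d, against 5.11, 5.67 and 6.20 in Water, and rose by 1.06 ± 0.16 (log2 ± SE, adjusted p = 6.27e-04). Bmal1 read 6.92, 7.29 and 6.19 and 7.54, 8.07 and 7.38 against 7.70, 8.20 and 8.41. In Bmal1 5 of 6 Gabapentin arrays lay below all Water arrays, and it fell by 0.91 ± 0.15 (log2 ± SE, adjusted p = 0.00123). Nfil3, a bZIP repressor that opposes the factor Dbp, differed by -0.93 ± 0.15 (log2 ± SE, adjusted p = 0.00151), and Nr1d2, a REV-ERB repressor, by 0.76 ± 0.14 (log2 ± SE, adjusted p = 0.00532). Nfil3 and Nr1d2 were not called in the blocked fit, at -0.97 (adjusted p = 0.0226) and 0.66 (adjusted p = 0.0807). That fit called 2 clock genes higher and 1 lower, namely Per3, Bmal1 and a higher gene not called in the main fit. A second, dim probe set of Per3, with a mean level of 4.4, differed by 0.06, and those of Nr1d2 by 0.25 and 0.68. Noct, a rhythmic phosphatase outside the list, rose by 1.04 ± 0.18 (log2 ± SE, adjusted p = 0.00209). Among those not called were Per1 at 0.99 (adjusted p = 0.0114), Per2 at 0.68 (adjusted p = 0.0737), Npas2 at -0.71 (adjusted p = 0.0221), Cry1 at -0.56 (adjusted p = 0.0363) and Dbp at 0.46 (adjusted p = 0.0662). Per the labels, 3 d and 5 d tissues were taken in the same morning window. The hour at which each animal was killed was not used here, and its part in these differences was not tested.

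Rrad had the largest fall among the called genes. Its product binds the beta subunit of voltage-gated calcium channels and lowers their current. It read 5.71, 6.60 and 6.51 at 3 d and 5.65, 5.70 and 5.92 at 5 d, against 6.72, 7.76 and 9.68 in Water, so that no Gabapentin array reached the lowest control. Rrad fell by 1.77 ± 0.32 (log2 ± SE, adjusted p = 0.00361), a 3.42-fold fall. Klf4, a zinc finger factor, read 7.96, 8.38 and 7.72 and 7.65, 7.37 and 7.77 against 8.47, 8.92 and 9.68, again without overlap, and fell by 1.14 ± 0.17 (adjusted p = 6.27e-04). Dusp10, which dephosphorylates p38 and JNK, read 6.65, 5.72 and 6.27 and 7.24, 7.03 and 6.81 against 7.22, 8.07 and 8.61. Only replicate 1 at 5 d reached into the Water range, and the fall was 1.38 ± 0.20 (adjusted p = 4.49e-04). Of 34 immediate early and stretch-responsive genes 4 were called lower, the fourth being the G protein regulator Rgs2 at -0.61 (adjusted p = 0.00603), and 0 higher. The list median was -0.41, and 13 members had an unadjusted p under 0.05 downward against 3 upward. Of all genes 0.176% were called lower, and at that p 8.03% were lower and 5.18% higher. Rgs2 was not called in the blocked fit, at -0.64 (adjusted p = 0.0408). Fos differed by -1.62 (adjusted p = 0.129), Egr1 by -0.94 (adjusted p = 0.186), Jun by -0.58 (adjusted p = 0.185) and Ier5 by -0.66 (adjusted p = 0.0244). The nuclear receptor Nr4a3, on the same list, lay on the other side at 2.43 (adjusted p = 0.0517).

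Matrix genes and the markers of fibroblasts and macrophages had mostly negative differences, with no single call. Of 32 matrix genes 31 had a negative difference, 18 with an unadjusted p under 0.05, where 8.03% of all genes were lower at that p, and the median was -0.41 against -0.01 for all genes, while 0 were called. Col1a1, the chain of fibrillar collagen, ran from 12.22 to 13.50 on Gabapentin arrays and from 12.41 to 13.95 on Water arrays, with a difference of -0.75 (adjusted p = 0.0521). The collagen chaperone Serpinh1 differed by -0.58 (adjusted p = 0.0297) and the small proteoglycan Dcn by -0.56 (adjusted p = 0.0806). The exception was the glycoprotein Tnc at 0.53 (adjusted p = 0.784). All 7 fibroblast markers were lower, 5 with an unadjusted p under 0.05, at a median of -0.49. Their summed level was 12.50 to 13.06 on Gabapentin arrays and 12.89 to 13.87 on Water arrays. All 12 macrophage markers were lower too, 7 with an unadjusted p under 0.05, at a median of -0.43. Blocked by date, that number was 1, with 11 of 12 lower at a median of -0.32, and without Gabapentin 3 d replicate 1 it was 3. Their summed level was 10.81 to 11.26 against 10.74 to 12.19. The part of either marker list in the matrix differences was not tested. In a whole muscle, fewer cells of a type and less RNA per cell cannot be told apart. The called genes Itga11, a collagen-binding integrin of fibroblasts, and Thbs3, a matrix thrombospondin, fell by 0.90 (adjusted p = 0.00732) and 0.75 (adjusted p = 0.00896). Without the Water array that stood apart, 1 matrix gene was called lower. Such falls were not particular to Gabapentin among the 9 compounds given in water. Serpinh1, Col6a3 and the fibroblast marker Clec3b lay below the same controls after all 9. Col1a1 lay above them after 1, Losartan (0.13), and was -0.79 after Paroxetine. The macrophage marker C1qa lay above them after 2, and was -1.18 after Etidronate against -0.66 after Gabapentin.

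Of the 4 alpha2delta subunit genes 2 were measured, Cacna2d1 and Cacna2d3, and neither was called. Cacna2d1, the alpha2delta subunit of muscle and a binding site of the drug, read 11.94, 12.00 and 11.85 at 3 d and 11.78, 12.01 and 12.00 at 5 d, within the Water range of 11.42 to 12.22. The difference was 0.07 (95% interval -0.10 to 0.24, adjusted p = 0.805). Cacna2d3, a relative not known as a high-affinity site, lay at 5.02 to 5.34 on Gabapentin arrays, near the dim end of the scale, and at 4.69 to 8.32 on Water arrays, with a difference of -0.24 (95% interval -0.92 to 0.43). Its 8.32 was the Water array that stood apart. Of 24 genes of excitation and contraction coupling 0 were called, with a median of 0.02. Sarcolipin (Sln), a regulator of the calcium pump, differed by -0.69 (adjusted p = 0.331). Of 12 genes of GABA synthesis, breakdown and receptors 0 were called, with a median of 0.01. Of 30 genes of L-type transport and branched-chain amino acid breakdown 9 had an unadjusted p under 0.05 upward and 1 downward, at a median of 0.12. At that p 5.18% of all genes were higher and 8.03% lower. Only Klf15 was called. As given above, that call was lost with the extraction date as a block. The transporters Slc7a8 and Slc43a1 differed by 0.64 (adjusted p = 0.0171) and 0.45 (adjusted p = 0.0479), and Slc7a5, the main L-type carrier, by 0.12 (adjusted p = 0.645). The aminotransferases Bcat1 and Bcat2, which start branched-chain breakdown, differed by -0.18 (adjusted p = 0.378) and 0.26 (adjusted p = 0.264). The GABA transaminase Abat and the GABA-making decarboxylase Gad1 differed by 0.03 (adjusted p = 0.909) and 0.02 (adjusted p = 0.916).

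Further lists held at most 1 call. Of 31 cell division genes Ccnd1, the D-type cyclin, was called lower at -0.79 ± 0.14 (log2 ± SE, adjusted p = 0.00333), with Gabapentin arrays from 6.98 to 7.86 and Water arrays from 7.73 to 8.67, and the list median was -0.12. Of 20 genes of denervation and the neuromuscular junction 0 were called, and the myogenic factor Myod1 differed by -1.01 (adjusted p = 0.0539). Of 19 muscle fibre markers 0 were called, with a median of 0.00, but the slow fibre genes varied widely. The slow troponin Tnnt1 read 8.45, 9.74 and 8.92 at 3 d and 5.36, 4.90 and 5.19 at 5 d, while Water ran from 3.98 to 12.20, which covers every Gabapentin array. Liver markers were higher on some Gabapentin arrays. Alb was 11.60, 9.03 and 6.22 at 3 d and 9.70, 5.97 and 9.38 at 5 d, against 5.20, 6.24 and 10.85 in Water, highest on replicate 1 of 3 d. Of 7 liver markers 0 were called and 4 had an unadjusted p under 0.05 upward, where 5.18% of all genes were higher at that p. The number at that p was 0 both with the extraction date as a block and without Gabapentin 3 d replicate 1. Without that array 31 genes were called, 30 of them among the 61, and 4 genes of the glucocorticoid list were called. The part of the liver markers in the other differences was not tested.

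**Figure D2:**
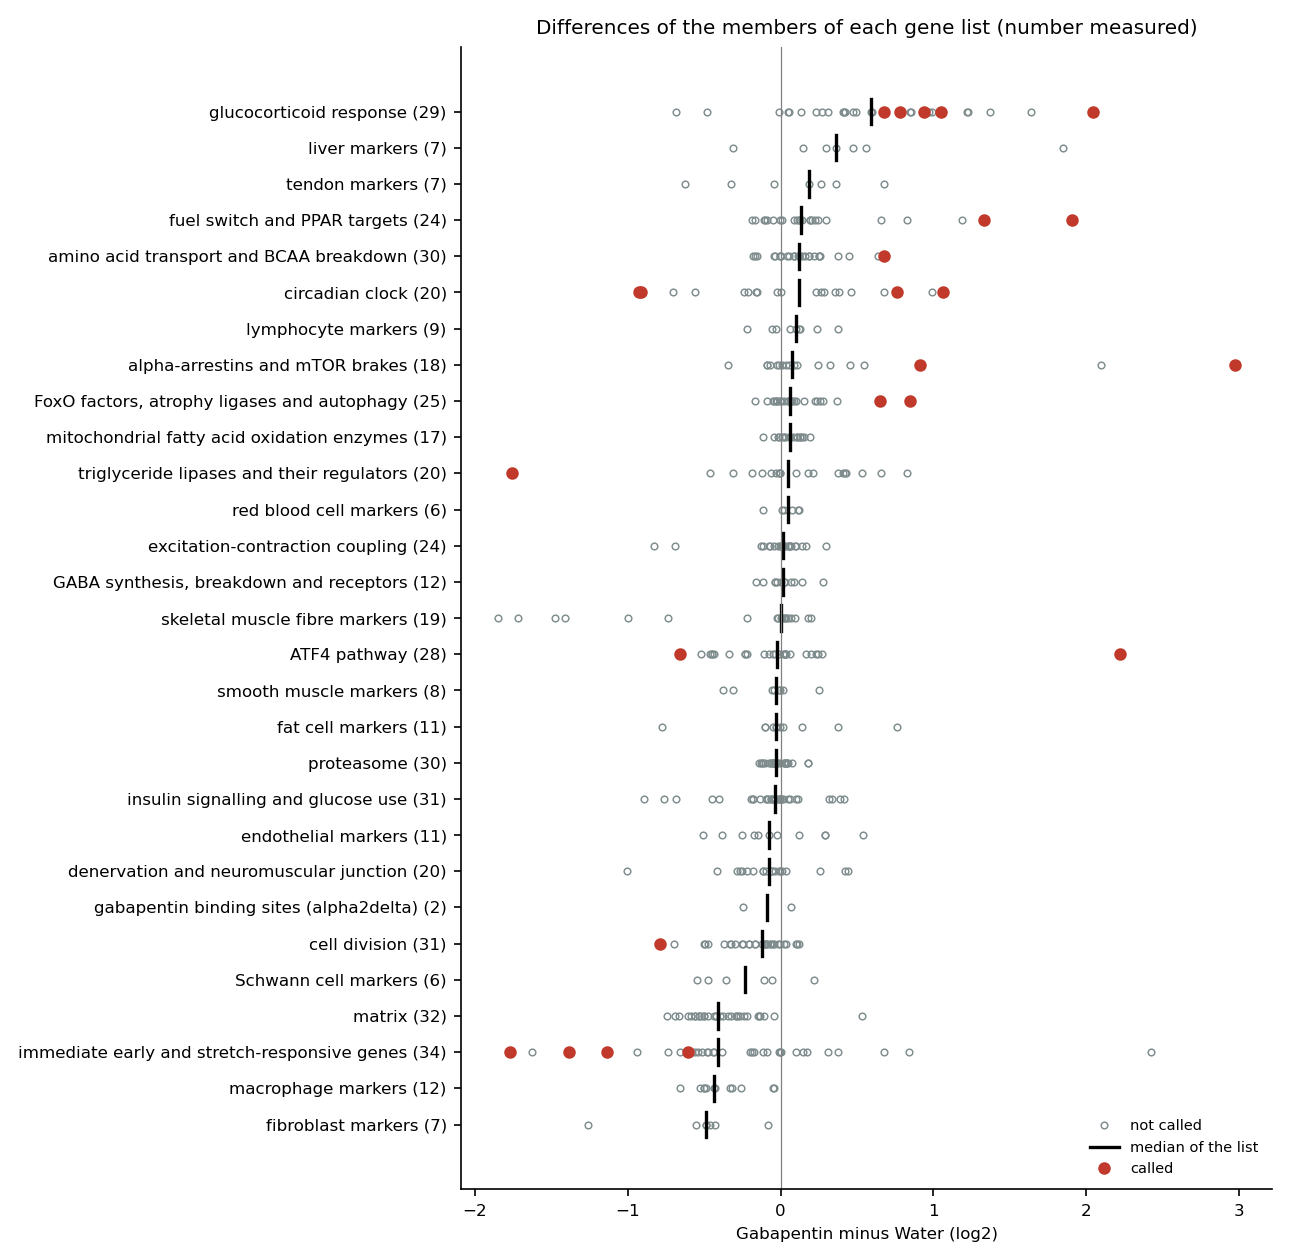
Difference of Gabapentin minus Water (log2, horizontal axis) for the measured members of each gene list, with filled points for called genes, open points for the others and a black line for the list's median. The glucocorticoid list has the highest median (0.59), and the fibroblast (-0.49), macrophage (-0.43), immediate early (-0.41) and matrix (-0.41) lists the lowest.

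Other called genes fell outside these lists. Fmo2, a flavin monooxygenase, read 8.03, 8.50 and 7.58 at 3 d and 6.09, 7.07 and 7.45 at 5 d against 4.89, 5.74 and 6.57 in Water, and rose by 1.70 ± 0.26 (log2 ± SE, adjusted p = 9.02e-04). Rhobtb1 read 9.14, 9.46 and 9.26 and 7.60, 8.53 and 8.38 against 6.66, 7.20 and 7.65, and rose by 1.52 ± 0.16 (log2 ± SE, adjusted p = 1.46e-05). In both, replicate 1 at 5 d was the array that stayed within the Water range. The potassium channel Kcna5 rose by 1.38 ± 0.24 (log2 ± SE, adjusted p = 0.00196), the transporter Flvcr1 by 1.16 ± 0.20 (log2 ± SE, adjusted p = 0.0018), and the galactosyltransferase Ggta1 by 1.09 ± 0.18 (log2 ± SE, adjusted p = 0.00114). Fam117b and Fam107a rose by 1.28 (adjusted p = 4.82e-05) and 1.12 (adjusted p = 0.00205). Signalling enzymes among the rises were the MAP kinase phosphatase Dusp7 at 0.97 (adjusted p = 0.00562), the cAMP phosphodiesterase Pde4d at 0.74 (adjusted p = 0.00183), the ubiquitin ligase Rnf144b at 0.86 (adjusted p = 6.27e-04) and the adenosine receptor Adora2a at 0.61 (adjusted p = 0.00464). Plekhf1, an endosomal protein, read 8.67, 8.73 and 8.79 and 8.63, 9.17 and 9.10, all above the Water maximum of 8.48, and rose by 0.87 (adjusted p = 4.49e-04). The rises of Abhd14a, Acer2, Adamts9, Cdc14a, Crocc, Cyp4b1, Myrip, Prom1 and Tp53bp2 lay between 0.65 and 1.02. Other probe sets of Fmo2 differed by 0.76 and 0.80, of Fam117b by 0.62, of Fam107a by 0.09 and of Ggta1 by 1.23. Those of Pde4d differed by 0.72 and 0.63, of Adora2a by 0.28 and of Abhd14a by 0.69. Those of Acer2 differed by 0.06 and 0.96, of Adamts9 by 0.04 and of Myrip by 0.50 and 0.24. The blocked fit did not call Flvcr1, Ggta1, Dusp7, Pde4d, Acer2, Adamts9, Cdc14a, Crocc, Cyp4b1, Myrip, Prom1, Tp53bp2 and Noct, at adjusted p-values from 0.0145 to 0.164.

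Among the falls outside the lists, the endothelial proteoglycan Esm1 read 5.18, 5.19 and 4.57 at 3 d and 5.84, 5.72 and 5.66 at 5 d against 5.47, 6.62 and 7.59 in Water. Its 3 d arrays lay below all 18 controls, and its 5 d arrays lay within the range of the 18 but below the 9 controls at 5 d, and the fall was 1.16 ± 0.22 (log2 ± SE, adjusted p = 0.00532). Traf5, an adaptor of tumour necrosis factor receptors, differed by -1.12 ± 0.20 (log2 ± SE, adjusted p = 0.00369) and Trib2, a pseudokinase, by -1.08 ± 0.16 (log2 ± SE, adjusted p = 6.27e-04). Gas7 and the zinc finger factor Glis2 had all 6 arrays below all 18 controls, at -0.82 ± 0.11 (log2 ± SE, adjusted p = 1.57e-04) and -0.89 ± 0.15 (log2 ± SE, adjusted p = 0.0018). Wsb1, part of a ubiquitin ligase, fell by 0.85 (adjusted p = 2.90e-04) and was called in all 37 alternative fits. Developmental factors among the falls were Meox2 at -0.90 (adjusted p = 0.00255) and Foxs1 at -0.73 (adjusted p = 0.00682). Immune ligands were Icoslg at -0.86 (adjusted p = 0.00629) and the chemokine Ccl24 at -0.64 (adjusted p = 0.00562). Second probe sets of Glis2 and Icoslg, with mean levels of 5.92 and 5.50, differed by -0.03 and -0.05. Those of Trib2 and Tm4sf1 differed by -1.08 and -0.39, and those of Medag by -1.24, -1.30 and -0.42. Tppp3, Medag, Tm4sf1 and Slc39a10, a zinc importer, made up the rest, from -0.99 to -0.70. The fit with the date block did not call Esm1, Foxs1, Icoslg, Ccl24, Tm4sf1, Slc39a10, Itga11 and Thbs3, at adjusted p-values from 0.0113 to 0.152. The genes Bambi, Coro1b, Dact2, Msx1 and Nfya also had all Gabapentin arrays below all controls without being called, and are named because of that.

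The 3 d and 5 d comparisons share no array, and genes were called at 3 d only. At 3 d, 65 genes were called (0.457% of genes), 46 higher (0.324%) and 19 lower (0.134%), with 1804 at an unadjusted p under 0.05 (12.7%). At 5 d, 0 were called by limma (0%), also in a fit of all 4 groups together, and 885 had an unadjusted p under 0.05, 6.22% of genes. Of the 65 genes, 56 kept their sign at 5 d, where 58.4% of all genes did. With an unadjusted p under 0.05 as well, 35 kept it, where the share over all genes was 4.63%. None of the 65 was as large at 5 d as at 3 d, and the median ratio of the 5 d to the 3 d difference was 0.370. The 65 were chosen for their size at 3 d, which by itself makes a second estimate smaller. The count at 3 d rested on few arrays. It was 9 without Gabapentin replicate 1, 9 without replicate 2 and 56 without replicate 3, and 43 without Water replicate 4 or without Water replicate 7. Taken as a mean over the 65 genes, with the sign of falling genes turned, the 3 d arrays lay at 1.40, 1.40 and 1.08 log2 units from their controls and the 5 d arrays at 0.26, 0.47 and 0.66. The Water arrays lay between -0.17 and 0.20. Each 5 d array thus stood above every control, the lowest by little, on genes that its own time had not chosen. Gabapentin arrays of both times carried the same study code and came from dates C and E. Compound and study therefore cannot be told apart at either time.

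**Figure D3:**
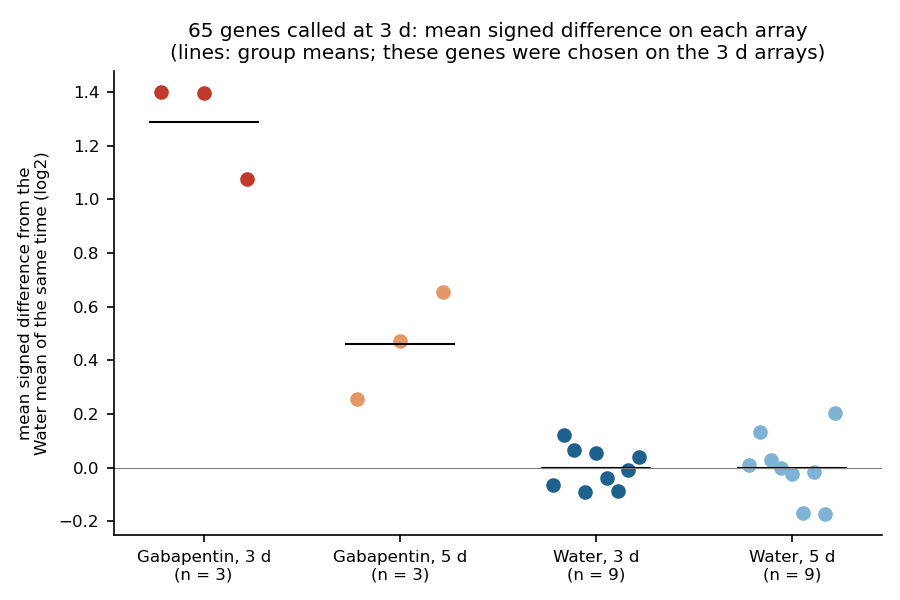
Mean signed difference from the Water mean of the same time (log2, vertical axis) over the 65 genes called at 3 d, 1 point per array, lines for group means, in 3 Gabapentin arrays per time and 9 Water arrays per time. The 3 d arrays, which chose the genes, lie at 1.08 to 1.40, the 5 d arrays at 0.26 to 0.66 and the Water arrays at -0.17 to 0.20.

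Single genes followed that order to different degrees. Of the 61 genes called over both times, 53 were larger in size at 3 d. The share of all genes that were larger at 3 d was not counted. The median residual SD (the spread within groups) was 0.193 at 3 d and 0.133 at 5 d. Arrdc2 differed by 3.05 at 3 d and 2.90 at 5 d, and Kcna5 by 1.37 and 1.39. Chac1 differed by 3.02 and 1.43, and Ggta1 by 1.71 and 0.48. Rrad and Klf4 ran the other way, at -1.43 and -2.12 for Rrad and -0.83 and -1.45 for Klf4. The product of time and treatment passed an adjusted p of 0.05 for 2 genes (0.0141%), Foxo1 and H6pd, and had an unadjusted p under 0.05 for 776 (5.46%). The Foxo1 difference was 1.41 at 3 d and 0.29 at 5 d, a change of -1.12 ± 0.19 (adjusted p = 0.0306). H6pd, which makes NADPH in the endoplasmic reticulum, read 6.40, 6.64 and 6.72 at 3 d and 5.66, 5.65 and 5.97 at 5 d against 5.51, 5.80 and 6.07 in Water. It differed by 0.84 and -0.07, a change of -0.92 ± 0.15 (adjusted p = 0.0306). With the extraction date as a block these 2 and Dusp7 passed, Dusp7 with a change of -1.32 (adjusted p = 0.0419). For the other genes a difference between the times was not shown.

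**Figure D4:**
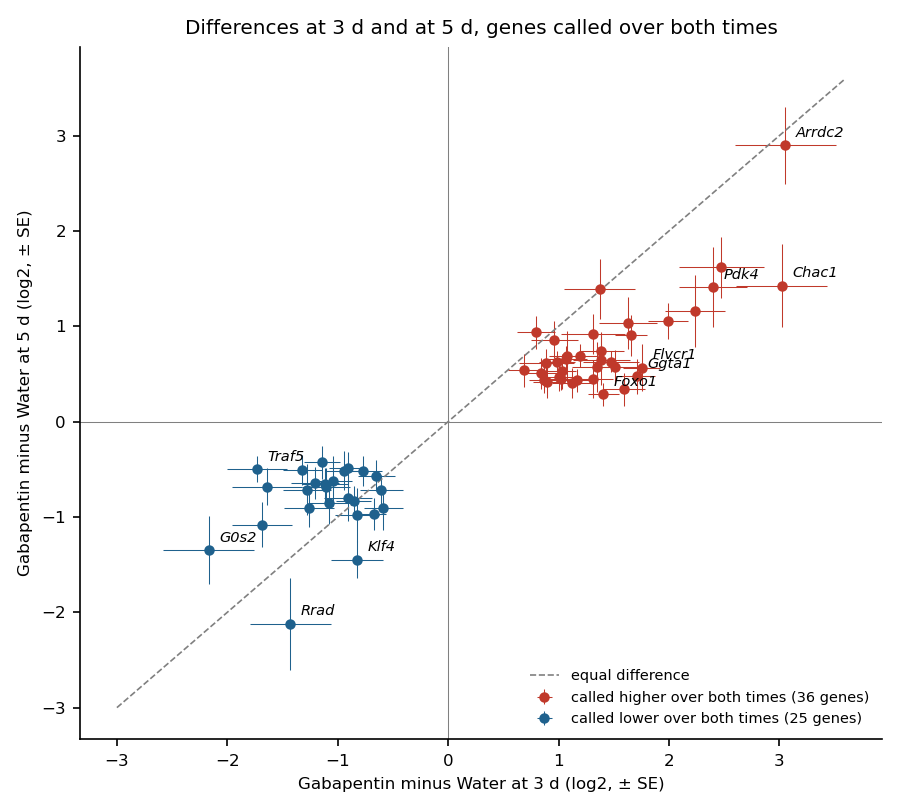
Gabapentin minus Water at 5 d (log2, vertical axis) against the same at 3 d (horizontal axis) for the 36 genes called higher and the 25 called lower over both times, with bars of ± 1 SE and a dashed line of equal differences. Of the 61 genes 53 are larger in size at 3 d, a count whose share over all genes was not taken. Arrdc2 lies near the line and Rrad and Klf4 beyond it.

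The same 18 controls served 8 further compounds given in water, so the differences of each compound are set side by side here and not counted against each other. Arrdc2 differed from Water by 2.98 after Gabapentin, 3.29 after the bisphosphonate Etidronate (1005 mg/kg), 2.88 after the angiotensin receptor blocker Losartan (1000 mg/kg) and 1.34 after the anticonvulsant Phenytoin (572 mg/kg). It was 1.40 after Dexchlorpheniramine (47 mg/kg). It lay between 0.04 and 0.39 after Dicyclomine (645 mg/kg), Paroxetine (104 mg/kg), Trimethadione (535 mg/kg) and Oxybutynin (230 mg/kg). Some of the called genes lay on the same side of Water after all 9 compounds. The share of all genes that did so was not counted. The called genes were chosen for differing from these same controls, which by itself favours a shared side. The names that follow are thus a description. Above it after all 9 were Chac1, Fmo2, Per3, Arrdc2, Rhobtb1, Fam117b, Ggta1, Klf9, Klf15, Foxo1, Foxo3 and Nr1d2. So were Abhd14a, Acer2, Cyp4b1, Dusp7, Myrip and Rnf144b. Below it after all 9 were Bmal1, Nfil3, Traf5, Tppp3, Meox2, Glis2, Aldh18a1, Ccnd1, Foxs1, Slc39a10, Thbs3, Tm4sf1 and Wsb1. Ucp3 was highest after Gabapentin, 1.33 against 0.66 after Etidronate, the next, and -1.46 after Oxybutynin, the lowest. Pdk4 ran from -1.20 after Oxybutynin to 1.91 after Gabapentin. Rrad was lowest after Gabapentin, with Paroxetine next at -1.73. Dusp10, Esm1, Icoslg, Traf5, Tppp3, Itga11, Glis2, Rgs2, Ccl24, Foxs1 and Tm4sf1 were also lowest after Gabapentin. Some were so by little, as Traf5 at -1.12 against -1.10 after Etidronate. The doses differ between the compounds and were not matched.

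**Figure D5:**
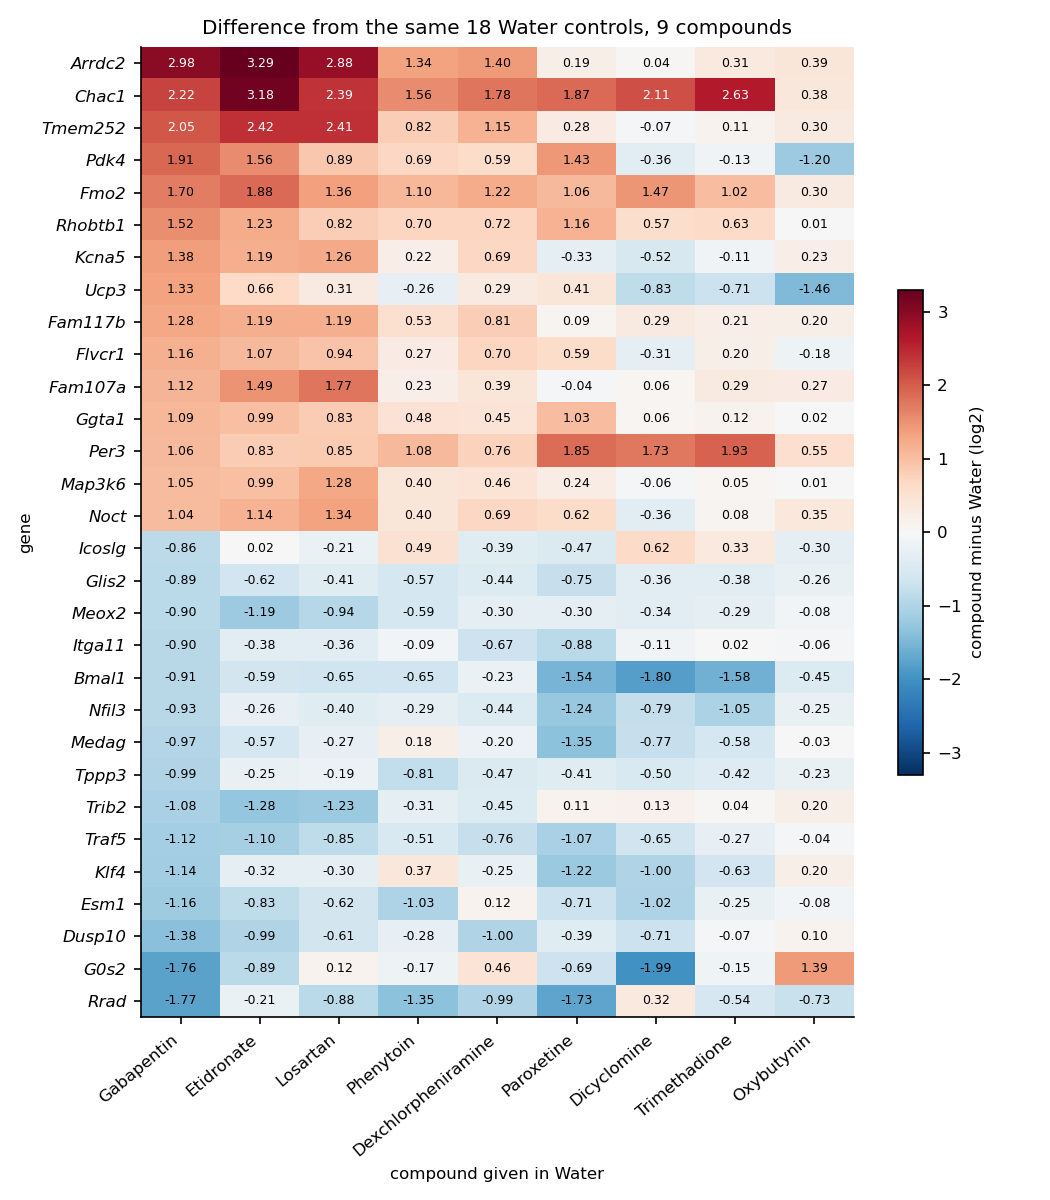
Difference of each of 9 compounds given in water from the same 18 Water controls (log2, colour and number in each cell), for the 15 largest rises and the 15 largest falls after Gabapentin. The columns for Etidronate and Losartan are red in most of the upper rows, Arrdc2 being 3.29 and 2.88 there. Ucp3, Rrad and Icoslg, among others, have their extreme value under Gabapentin.

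Direct fits of Gabapentin against another compound use no control array, and 4 were made. Against Losartan 0 genes were called by limma (0%), with 1581 at an unadjusted p under 0.05 (11.1%). The difference for Arrdc2 was 0.09 (95% interval -0.50 to 0.68) and for Tmem252 -0.36 (95% interval -1.14 to 0.42). Those intervals leave room for differences of the size the fold limit asks for. Ucp3 was 1.02 (95% interval 0.42 to 1.63, adjusted p = 0.225), G0s2 -1.88 (95% interval -3.18 to -0.59, adjusted p = 0.289) and Klf4 -0.83 (95% interval -1.14 to -0.53, adjusted p = 0.0711). None of these passed the correction. Against Phenytoin, the other anticonvulsant tested directly, 0 genes were called (0%), with 1692 at an unadjusted p under 0.05 (11.9%). Ucp3 was 1.59 (95% interval 0.88 to 2.31, adjusted p = 0.134), Arrdc2 1.64 (95% interval 0.55 to 2.72, adjusted p = 0.237) and Per3 -0.01 (95% interval -0.54 to 0.52).

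Against Etidronate 13 genes were called (0.0914%), 11 higher (0.0774%) and 2 lower (0.0141%) after Gabapentin, with 2222 at an unadjusted p under 0.05 (15.6%). Most of the 11 are genes of cell division, several of them named after their values were seen. They were the cyclin Ccnb2 at 1.07 (adjusted p = 0.00159), the phosphatase Cdkn3 at 1.26 (adjusted p = 0.00157), the spindle protein Prc1 at 0.99 (adjusted p = 0.00157), the kinase Cdk1 at 0.91 (adjusted p = 0.00867), the proliferation marker Mki67 at 0.88 (adjusted p = 0.00288), Racgap1, Pclaf, Cenpf and Top2a. The remaining 2 were Cpa1 at 1.07 (adjusted p = 0.00867) and Lpar6, a lysophosphatidic acid receptor, at 0.95 (adjusted p = 0.00767). The 2 lower genes were Selenbp1 at -1.61 (adjusted p = 0.00867) and the cell cycle inhibitor Cdkn1a at -1.38 (adjusted p = 0.00157). Against Water, Ccnb2 differed by -0.33 after Gabapentin and -1.40 after Etidronate, and Cdkn1a by -0.01 and 1.37. With the extraction date as a block 0 genes were called against Etidronate. Against the mean of the other 8 compounds given in water, 45 arrays, 0 genes were called (0%), with 1597 at an unadjusted p under 0.05 (11.2%). The genes nearest to a call among the 61 were Tiparp at 0.65 (adjusted p = 0.0237), Trib2 at -0.74 (adjusted p = 0.0237) and Arrdc3 at 1.02 (adjusted p = 0.035). With the date as a block, 1 gene was called higher, the lipoxygenase Alox15 at 0.63 (adjusted p = 0.00995), which is named because it was that gene.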

How the data were processed

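Thigh muscle RNA (polyA) had been labelled and hybridized to 1 array per animal sample. Per the submitters' processing notes, the authors normalized the arrays by RMA and deposited 1 value per probe set on the log2 scale. The notes give neither a version nor the arrays normalized together. The study's methods name frozen RMA, with probe effects estimated beforehand on a random draw from the wider dataset, and whether the deposited values were made that way was not settled here. Changes of weakly expressed genes are understated by RMA, and no detection calls came with the values. The series' design text describes biological triplicates, and replicate numbers follow the order of deposit.

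Of 31099 probe sets, 20826 had 1 gene symbol, 436 several, 9780 none and 57 were array controls. The 14217 genes tested were each taken as the probe set with the highest mean, and 14167 matched the current rat gene table. Gabapentin was compared with Water by limma 3.58.1 (lmFit and eBayes, R 4.3.3) with time as a covariate, and p-values were adjusted by Benjamini-Hochberg over all genes. All adjusted p-values are from limma. Calls used an adjusted p of 0.01 and a fold of 1.5, and the product of time and treatment an adjusted p of 0.05. A list's summed level is the log2 of the sum of its members' linear values. Named were the 15 largest rises and the 15 largest falls whose sign held at an unadjusted p under 0.05 with the extraction date as a block, every called list member, up to 3 members of each list with the smallest p, the measured alpha2delta genes with Slc7a5, Bcat1, Bcat2, Abat and Gad1, and the 3 largest called differences each way against other compounds and for the product of time and treatment. Other called genes and other list members were named after their values were seen. List counts without single arrays, with the date block or without 3 glucocorticoid genes, and the Water arrays left out at each time, were added after seeing the data. The comparison, the 29 gene lists and the tests were chosen with earlier results of these data known. Sequences are from RefSeq, GRCr8. Promoter windows were found for 34 of 36 called-higher and 18 of 25 called-lower genes. The fit was tested on simulated data. Alternatives were other blocks, scalings, probe set choices, filters, tests and single arrays left out.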

Additional observations from a re-analysis of the deposited data

Results flagged for a closer look

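The response of Foxo1 differed between the times, with a difference from Water at 5 d that was 1.12 lower than at 3 d (-1.12 on the log2 scale), and that of H6pd likewise (-0.92). Both passed the test of the product of time and treatment.

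Among the 68 genes checked in the Water groups of 9, 11 of 136 sets of values had 1 array far from the others, where chance gives about 1 in 20. At 3 d these were Abhd14a on replicate 2 (7.49, high), Cyp4b1 on replicate 3 (8.85, high), G0s2 on replicate 3 (8.16, low), Icoslg on replicate 8 (5.81, low), Traf5 on replicate 8 (8.52, high) and Cacna2d3 on replicate 9 (6.46, high). At 5 d these were Abhd14a (6.68, low), Klf15 (8.19, low) and Cacna2d3 (8.32, high) on replicate 4, and Acer2 (6.27, high) and Gas7 (8.15, high) on replicate 9. The low G0s2 control lay within the Gabapentin range, and the low Klf15 control is the array with the lowest correlation to the others.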

How the results depend on the processing

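None of the 61 called genes changed sign in any alternative that tested it. Their number depended on the arrays and the block. It was 32 with the extraction date as a block over the 24 arrays, 68 with that block over all arrays of the series, 38 on the shared extraction dates with a block, 2 on date C alone (Arrdc2 and Wsb1) and 40 by the methods' t-test. Leaving out single arrays gave 29 to 83, lowest without Gabapentin 3 d replicate 2 and highest without Water 5 d replicate 4. The higher share of calls was 59.0%, against 50% with the date block, 44.7% on the shared dates, 70% by the methods' t-test and 43.6% with array quality weights, where 78 genes were called. At 3 d, where 65 were called, leaving out each of the 12 arrays of that time gave 9 to 75, and at 5 d 0 to 0. With the date as a block, 0 genes instead of 13 were called against Etidronate, 1 instead of 0 against the other 8 compounds, and 3 instead of 2 for the product of time and treatment. The cause was not tested. The number of arrays limits the precision. No paired analysis was possible because the labels number no replicates and so pair no animals across groups.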
